A study of Mus musculus with 29 samples.

Results

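The genes described here are 10 transcripts that cells switch on within minutes to hours of serum, growth factors or stress: *Egr1*, *Egr2*, *Egr3*, *Ier2*, *Ier3*, *Ier5*, *Srf*, *Btg2*, *Zfp36* and *Myc*. They were taken by gene name from a count table of 55357 genes, by a rule that uses names alone, although the set was proposed with earlier results of these data known. All 10 were found and passed the filter on low counts in every main fit. The libraries came from primary mouse cardiac fibroblasts, the cells that build and maintain the matrix of the heart, and were made to ask how cardiac ageing and the substrate shape these cells. YCF denotes cells of young and ACF cells of aged mice. Freshly isolated cells gave 3 libraries at each age. The other 23 libraries came from cells kept for 48 h on DECIPHER substrates, which join heart extracellular matrix (ECM) with a hydrogel. The names SoftY, StiffY, SoftA and StiffA pair a soft or stiff gel with ECM of young (Y) or aged (A) heart. Each of the 8 cultured groups held 3 libraries, except young cells on SoftY with 2. No group carries a transgene, a deletion or a drug per the labels. Age in months, strain, sex and any sort for fibroblasts are not stated in what was used here. Replicates are not linked to single animals by the labels, and the spread behind a p-value is that of these libraries, which may be technical in part.

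Serum response factor (SRF, the product of *Srf*) binds the CArG box of many immediate early genes, and growth factor signals through the ERK kinases or through actin act on it by way of partner proteins. The *Egr* genes encode zinc finger transcription factors that bind GC-rich sites and induce their own corepressors Nab1 and Nab2. *Ier2*, *Ier3* and *Ier5* encode small immediate early response proteins. *Btg2* encodes an antiproliferative protein that promotes deadenylation of mRNA, *Zfp36* encodes tristetraprolin, which binds AU-rich elements and speeds the decay of cytokine mRNAs, and *Myc* encodes a transcription factor that drives growth and ribosome assembly. In fibroblasts these genes are the textbook response to serum and wounding, and their transcripts are mostly short-lived.

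Library totals ran from 1192668 to 3275089 counts, so that a gene at 10 CPM (the count scaled to a library's total, here after TMM, a correction for library composition) rested on 11.9 to 32.8 counts. *Egr3* had between 1 and 45 counts per library, *Srf* 6 to 53 and *Ier5* 0 to 39, and their values are less precise than those of the other members. All 8 fibroblast markers were detected in every class of cells, at a summed level of 8004 to 8538 CPM in fresh young, 6473 to 6925 CPM in fresh aged, and 19458 to 31595 CPM in cultured libraries. The summed level of 10 macrophage and myeloid markers was 209 to 218 CPM in fresh young, 388 to 424 CPM in fresh aged and 23.5 to 67.0 CPM in cultured libraries. Of 6 lymphocyte markers, 2 had a count in fresh young and 3 in fresh aged cells, with sums of up to 1.03 and 2.07 CPM. Of 5 neutrophil markers, 2 had a count in fresh young and 3 in fresh aged cells, with sums of up to 4.47 and 12.5 CPM. In bulk RNA, fewer cells of a type and less RNA per cell cannot be told apart. All fresh libraries carry the letter A in their names and each substrate a letter of its own, while numbers 1 to 3 are young and 4 to 6 aged. Culture or substrate and a preparation by letter cannot be told apart, nor can age and a preparation by number.

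Promoters are shown for the members in which the motifs of these same factors were found, since SRF and the Egr proteins are themselves products of the set. RefSeq windows (GRCm38.p6, 250 bases before to 50 after each start) were matched for 6 of the 10 members, *Egr2*, *Ier3*, *Ier5*, *Srf*, *Btg2* and *Zfp36*, as 10 windows. Capitals mark the CArG box, the Egr motif GCGNGGGCG and the cAMP response element TGACGTCA, searched on both strands, and position -1 is the base before the start.
Srf, chr17:46556176-46556342, minus strand, bases -180 to -14: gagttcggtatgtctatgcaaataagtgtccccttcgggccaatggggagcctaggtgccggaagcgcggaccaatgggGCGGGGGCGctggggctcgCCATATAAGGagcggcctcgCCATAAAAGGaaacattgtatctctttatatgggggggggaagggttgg
Egr2, chr10:67537689-67537855, plus strand, bases -180 to -14: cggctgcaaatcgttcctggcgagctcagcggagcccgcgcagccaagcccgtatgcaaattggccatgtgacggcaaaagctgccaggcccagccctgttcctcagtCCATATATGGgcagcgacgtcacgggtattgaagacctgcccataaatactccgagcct
Zfp36, chr7:28379267-28379296, minus strand, bases -68 to -39: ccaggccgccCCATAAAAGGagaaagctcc
Btg2, chr1:134079169-134079335, minus strand, bases -180 to -14: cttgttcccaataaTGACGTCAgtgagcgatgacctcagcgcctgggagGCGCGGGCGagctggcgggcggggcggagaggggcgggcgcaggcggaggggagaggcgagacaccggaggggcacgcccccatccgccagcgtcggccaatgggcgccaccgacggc
*Srf* itself held 2 CArG boxes, starting at -82 and -62, with an Egr motif at -101. The *Egr2* window shown has its box at -72, and 4 of the 5 annotated *Egr2* starts had a CArG box in their window. The starts at 67537869, 67537870 and 67537930 share the same box. *Zfp36* had a box at -58 and, outside the stretch shown, an Egr motif at -105. *Btg2* had no CArG box in its window but an Egr motif at -131 and a cAMP response element at -166. The windows of *Ier3* and *Ier5* held none of these motifs. Among 32851 windows of the whole table, 1.63% held a CArG box, 5.55% the Egr motif and 1.79% the cAMP response element. The box was found in 3 of the 6 members matched, a count by gene that cannot be set directly against these shares by window. A match describes letters only, and no binding was measured.

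The first comparison set fresh aged against fresh young cells, isolated from the heart but not cultured. Isolation was not varied here, so the levels are those of isolated cells, and any part of it was not tested. Most of the set was higher in fresh aged cells: 8 members rose and 1, *Srf*, fell, with log2 fold changes of up to 2.34. At an adjusted p under 0.05 (edgeR's quasi-likelihood test), 31.8% of the 11786 genes tested were called in this comparison, 1771 higher and 1979 lower. The median log2 fold change was 1.22 over the 10 members and -0.02 over all genes tested.

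Among the Egr factors, *Egr1* (ENSMUSG00000038418, mm39 chromosome 18, 34992876 to 34998038) measured 192, 180.2 and 182 CPM in the fresh young libraries and 692, 713 and 690.2 CPM in the fresh aged ones. The groups lay far apart relative to their spread, with a log2 fold change of 1.88 ± 0.06 (SE, n = 3 each), 3.69-fold, adjusted p = 1.71e-11. *Egr2* (ENSMUSG00000037868, chromosome 10, 67371305 to 67378019), which in Schwann cells drives myelination, stood at 15.8, 23.1 and 21.1 CPM in young and 108, 114 and 90.6 CPM in aged cells. It rose by 2.34 ± 0.15 (adjusted p = 4.38e-08), the largest change of the 10. *Egr3* rose by 1.76 ± 0.44 (adjusted p = 0.00708) from a low level, with 4 to 5 counts per young and 11 to 16 per aged library. Both measured corepressors of the Egr proteins went the other way: *Nab2* fell by 2.11 ± 0.14 (adjusted p = 5.71e-08), from a mean of 107 to 25.3 CPM, and *Nab1* fell by 0.60 ± 0.17.

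Of the Ier genes, *Ier3*, whose product is tied to survival and apoptosis, measured 57.8, 68.7 and 59.7 CPM in young and 236, 254 and 254 CPM in aged fresh cells (ENSMUSG00000003541, chromosome 17, 36132576 to 36133816). It rose by 1.96 ± 0.09, adjusted p = 9.05e-10, with no overlap of the groups. *Ier5* rose by 1.43 ± 0.32 (adjusted p = 0.00366) from 4.36 ± 0.40 to 12.15 ± 3.55 CPM (SD, n = 3). *Ier2* did not pass the test (0.32 ± 0.16, adjusted p = 0.156). Its young libraries spread from 202 to 368 CPM and overlapped the aged ones at 300.1 to 390.3 CPM, and without young replicate 1, the highest of the 3, its log2 fold change was 0.59, adjusted p = 1.78e-05.

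*Srf* was the exception in direction. Its transcript measured 12.7, 15.3 and 13.6 CPM in young and 4.56, 4.58 and 8.27 CPM in aged fresh cells, and fell by 1.28 ± 0.30 (adjusted p = 0.00448). The levels rest on 11 to 53 counts per library, and the groups did not overlap. Among 5 measured SRF partner genes, the ternary complex factor gene *Elk3* rose by 0.96 ± 0.18 and the myocardin-related *Mrtfb* fell by 0.52 ± 0.11, while *Elk1*, *Elk4* and *Mrtfa* were not called. Of 12 contractile SRF targets listed, 10 passed the filter, 4 rose and 1 fell, with a median of 0.06, among them *Actg1* at 0.64 ± 0.09 and *Tpm1* at -0.39 ± 0.05.

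Of the genes that restrain growth or cytokine mRNA, *Btg2* measured 82.9, 76.8 and 88.3 CPM in young and 113, 137 and 126 CPM in aged fresh cells (0.57 ± 0.10, adjusted p = 7.17e-04). *Btg1*, its closest relative, rose by 0.74 ± 0.09. *Zfp36* rose by 0.94 ± 0.12 (adjusted p = 4.16e-05), from 39.9, 36.7 and 35.7 CPM to 75.5, 76.6 and 68.9 CPM, again without overlap. 9 of 10 listed transcripts with AU-rich elements that tristetraprolin is known to bind passed the filter, and all 9 were higher, with a median of 2.21, among them the prostaglandin synthase *Ptgs2* at 4.11 ± 0.10 and the chemokine *Cxcl1* at 2.21 ± 0.04. The regulator and the transcripts that it is known to destabilise were thus higher in the same libraries. *Myc* (ENSMUSG00000022346, chromosome 15, 61857240 to 61862224) stood at 142, 139 and 146 CPM in young and 305, 286 and 296 CPM in aged fresh cells. It rose by 1.02 ± 0.07, adjusted p = 5.71e-08, 2.03-fold. Of 15 Myc targets of ribosome assembly and growth, 4 rose and 1 fell (median 0.14), with the polyamine enzyme *Odc1* at 1.23 ± 0.14 and *Cad* at -0.52 ± 0.10. In the Myc network the antagonists *Mxd3* and *Mxi1* fell by 2.32 ± 0.31 and 1.68 ± 0.35, while *Mlx* rose by 0.72 ± 0.16.

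The neighbours of the set in the pathway were also mostly higher. Of 9 measured AP-1 and Nr4a genes 7 rose, among them the orphan nuclear receptor *Nr4a1* at 2.53 ± 0.11. A further list of immediate early genes had 11 of 18 members higher and 1 lower, among them the matricellular *Ccn1* at 1.33 ± 0.04. 6 of 8 measured ERK feedback genes rose, among them the phosphatases *Dusp1* (1.16 ± 0.08) and *Dusp6* (1.19 ± 0.09), and 3 of 4 EGF-family genes, among them *Ereg*, which encodes epiregulin (2.21 ± 0.09). Markers of other cells differed as well, in both directions: 5 of 8 measured macrophage and myeloid markers were higher in fresh aged cells, such as *Cd14* (log2 fold change 1.86). Summed pericyte and smooth muscle markers were at 302 to 369 CPM in fresh young and 157 to 187 CPM in fresh aged cells, with 1 of the 2 tested lower. Endothelial sums were 140.0 to 158 CPM in young and 182 to 191 CPM in aged cells, with 1 of 7 higher, and neutrophil sums 0.470 to 4.47 CPM and 9.54 to 12.5 CPM, with the 1 tested higher. Their part in the result was not tested.

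**Figure D1:**
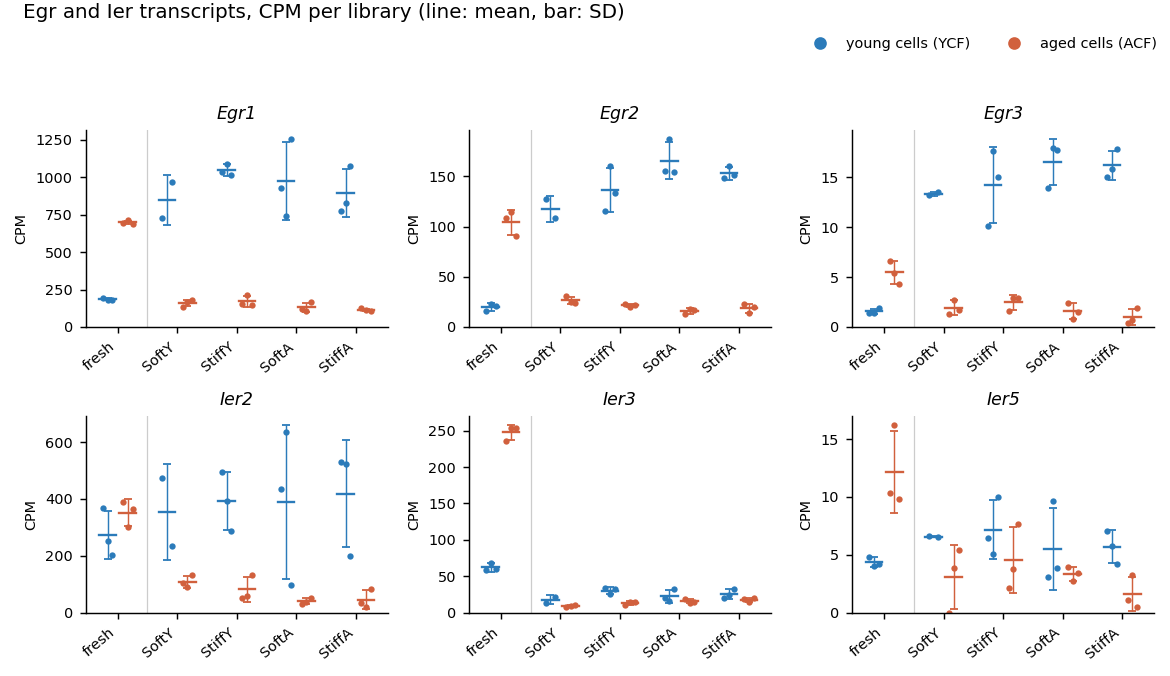
CPM of the Egr and Ier genes in each library, fresh and on 4 substrates, with group mean (line) and SD (bar); young cells are blue and aged cells orange. *Egr1*, *Egr2* and *Egr3* are higher in fresh aged than fresh young libraries, and higher in every cultured young than in every cultured aged library.

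Cultured cells were compared with fresh cells of the same age, over the mean of the 4 substrates, to ask what 48 h on the scaffolds changed. The set split by the age of the cells. In young cells 5 members rose with culture, the 3 Egr genes, *Btg2* and *Zfp36*, and *Ier3*, *Myc* and *Srf* fell. In aged cells 9 fell and 0 rose. These comparisons called 56.9% of 13523 genes in young cells (3659 higher, 4040 lower) and 62.4% in aged cells (4042 higher, 4392 lower), so that a call alone says little here. The members' median was 0.74 in young and -2.16 in aged cells, against -0.03 and -0.01 over all genes.

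The Egr genes moved in opposite directions. *Egr1* ran from 729 to 1258 CPM with a median of 967 CPM in the 11 cultured young libraries, and from 105 to 211 CPM with a median of 141 CPM in the 12 cultured aged ones. It rose in young cells by 2.34 ± 0.15, from its fresh level of 180.2 to 192 CPM, and fell by 2.30 ± 0.11 in aged cells, from 690.2 to 713 CPM (adjusted p = 1.96e-14 and 2.69e-17). The *Egr1* levels of fresh young cells and of aged cells on StiffY overlapped. *Egr2* rose by 2.82 ± 0.14 and fell by 2.35 ± 0.11, and *Egr3* rose by 3.25 ± 0.32 and fell by 1.77 ± 0.31. *Egr2* ranged from 108 to 188 CPM in cultured young and 12.7 to 30.6 CPM in cultured aged libraries, with no overlap. Their corepressor *Nab2* fell by 1.36 ± 0.11 in young cells and rose by 0.46 ± 0.14 in aged cells, opposite to the Egr genes at each age.

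*Ier3* fell with culture at both ages, by 1.43 ± 0.14 in young and 4.21 ± 0.13 in aged cells, 18.5-fold in the latter and the largest change of the set. It ended at 13.2 to 33.1 CPM in cultured young and 8.19 to 19.4 CPM in cultured aged libraries. *Ier2* and *Ier5* fell in aged cells, by 2.48 ± 0.32 and 2.01 ± 0.37. In young cells they gave 0.51 ± 0.35 (adjusted p = 0.220) and 0.52 ± 0.42 (adjusted p = 0.301), and neither passed the test.

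*Srf* fell by 0.95 ± 0.24 in young cells (adjusted p = 0.00128) and gave -0.17 ± 0.29 in aged cells (adjusted p = 0.634). Its cultured libraries ran from 4.34 to 14.1 CPM in young and 2.84 to 10.4 CPM in aged cells and overlapped widely. The contractile genes that SRF is known to drive did not follow its transcript. All 12 rose in young cells, with a median of 1.52, and 10 rose and 2 fell in aged cells, with a median of 1.68. Smooth muscle actin (*Acta2*) rose by 5.75 ± 0.15 and 5.33 ± 0.15, and vinculin (*Vcl*) by 2.95 ± 0.09 and 2.43 ± 0.09. Of the partners, *Mrtfa* rose at both ages, by 0.42 ± 0.11 and 0.35 ± 0.11, and *Elk1* and *Elk3* fell in aged cells, by 0.66 ± 0.14 and 0.74 ± 0.17.

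In young cells *Btg2* rose by 2.19 ± 0.09, and in aged cells it fell by 0.48 ± 0.08. It measured 249.8 to 472 CPM, with a median of 431 CPM, in cultured young libraries and 65.2 to 115 CPM in cultured aged ones. *Zfp36* rose by 0.95 ± 0.23 and fell by 0.76 ± 0.21. The AU-rich transcripts fell whichever way *Zfp36* went: all 10 were lower in young (median -4.14) and in aged cells (median -6.56), with the chemokine *Ccl2* at -3.08 ± 0.04 and -4.67 ± 0.04. Macrophage and myeloid markers moved with them, 7 of 8 lower in young and 8 of 8 in aged cells, and 6 of 7 and 5 of 7 endothelial markers were lower too. Their part in the result was not tested.

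*Myc* fell by 0.53 ± 0.08 in young and 2.48 ± 0.07 in aged cells, 5.59-fold in the latter, to 42.3 to 63.0 CPM. All 15 Myc targets of ribosome assembly and growth fell at both ages, with medians of -1.27 and -1.57, among them nucleolin (*Ncl*) at -1.90 ± 0.06 and -1.97 ± 0.06 and nucleophosmin (*Npm1*) at -1.69 ± 0.10 and -1.77 ± 0.09. Within the network *Mycn* rose by 1.60 ± 0.22 and 2.09 ± 0.23, and the antagonist *Mxd4* by 2.41 ± 0.20 and 2.45 ± 0.21. *Max* fell by 0.56 ± 0.08 in young cells and *Mlx* by 1.13 ± 0.13 in aged cells.

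**Figure D2:**
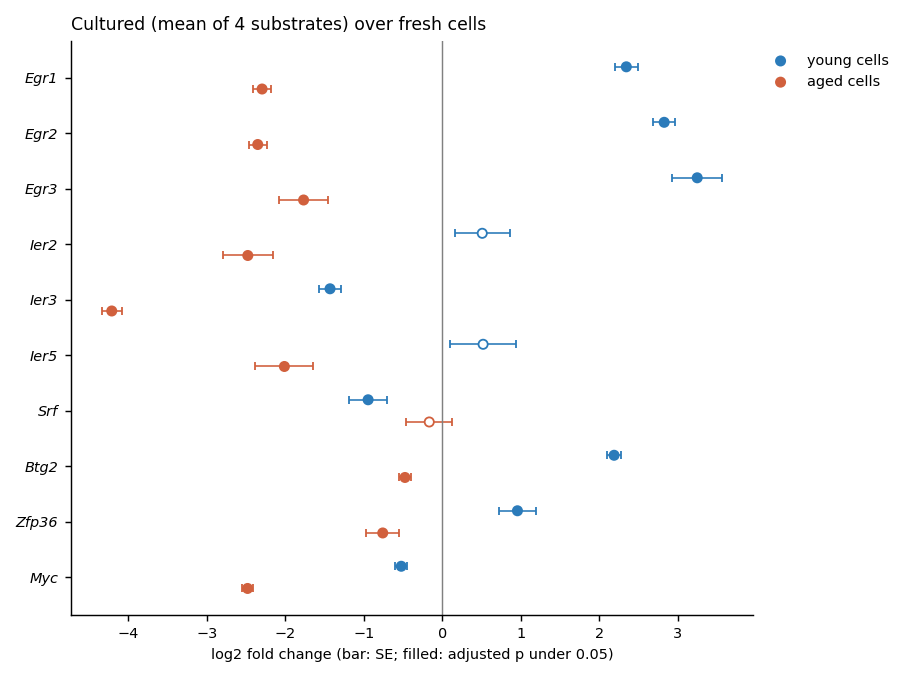
Log2 fold change of cultured (mean of 4 substrates) over fresh cells for each member, in young (blue) and aged (orange) cells, with SE bars and filled points for an adjusted p under 0.05. The Egr genes, *Btg2* and *Zfp36* lie above 0 in young and below 0 in aged cells.

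The difference between the ages in the response to culture was tested as an interaction, and 9 members were lower in it, aged relative to young, where 20.6% of 13523 genes were called (1417 higher, 1369 lower). The largest was *Egr2* at -5.18 ± 0.18 (adjusted p = 2.17e-19), followed by *Egr3* at -5.01 ± 0.45 and *Egr1* at -4.64 ± 0.20. *Ier2*, which passed in only 1 of the 2 ages, gave -2.99 ± 0.50 (adjusted p = 3.71e-05) and *Btg2* -2.66 ± 0.12. *Srf* gave 0.78 ± 0.38 and did not pass (adjusted p = 0.159). The median of the 10 was -2.72, against -0.01 over all genes. 8 of 10 measured AP-1 and Nr4a genes were lower in the interaction as well, among them *Nr4a1* at -7.35 ± 0.20, and 7 of 8 ERK feedback genes, while *Nab2* was higher at 1.82 ± 0.19. Of the markers of other cells, 5 of 8 myeloid ones were lower and 4 of 7 endothelial ones higher in it, and their part was not tested.

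Aged and young cells were then compared in culture, as means over the 4 substrates. The direction seen in fresh cells was turned round: 9 of 10 members were lower in cultured aged cells, by as much as 3.23 on the log2 scale, and 0 were higher. Only 15.0% of 12841 genes were called here, 837 higher and 1091 lower. The members' median was -1.57, against -0.00 over all genes. Each library counted as independent in the test, although library numbers recur across the substrates. If libraries of the same number came from the same cells, the p-values here and for culture rest on repeated units. The labels do not settle this.

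*Egr3* changed by -3.23 ± 0.20 (9.38-fold), *Egr2* by -2.81 ± 0.08 (7.02-fold) and *Egr1* by -2.73 ± 0.09 (6.63-fold), with adjusted p = 4.17e-12, 7.69e-19 and 3.23e-17. On each substrate young cells lay above aged ones. *Egr1* measured 729 and 967 CPM in young and 135, 164 and 177 CPM in aged cells on SoftY, and 1036, 1091 and 1014 CPM against 154, 211 and 148 CPM on StiffY. On aged matrix it measured 931, 739 and 1258 CPM against 119, 105 and 167 CPM on SoftA, and 772, 829.9 and 1075 CPM against 123, 111 and 109 CPM on StiffA. The gap between the ages was thus present on all 4 substrates. For each of the 3 Egr genes the lowest cultured young library lay above the highest cultured aged one. In *Egr1* these were 729 and 211 CPM. *Ier2* (ENSMUSG00000053560, chromosome 8, 85387960 to 85389484) fell by 2.64 ± 0.26 (adjusted p = 3.58e-08), with young libraries at 97.0 to 636 CPM and aged ones at 20.5 to 133 CPM, which overlapped. *Ier3* fell by 0.80 ± 0.14 (adjusted p = 1.90e-04) with overlapping libraries. *Ier5* fell by 1.07 ± 0.32 (adjusted p = 0.0245), from at most 23 counts per library, and lost its call without young replicate 1 on SoftY or replicate 2 on SoftA, at an adjusted p of up to 0.102.

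*Srf* gave -0.48 ± 0.20 (adjusted p = 0.115) and did not pass. *Btg2* (ENSMUSG00000020423, chromosome 1, 134002908 to 134006859) had the smallest relative error, at -2.07 ± 0.05 (4.19-fold, adjusted p = 5.12e-20), and every young library, from 249.8 CPM, lay above every aged one, up to 115 CPM. *Myc* fell by 0.91 ± 0.06 (adjusted p = 5.08e-11), again with no overlap between 79.9 to 118 CPM in young and 42.3 to 63.0 CPM in aged libraries. *Zfp36* fell by 0.75 ± 0.16 (adjusted p = 0.00145) with overlap, and its relatives *Zfp36l1* and *Zfp36l2* fell by 0.44 ± 0.05 and 0.83 ± 0.26. Of its AU-rich transcripts 5 passed the filter and 4 were lower, such as *Cxcl1* at -1.49 ± 0.09.

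The neighbours in the pathway were lower too, but the regulators above and the ribosomal targets below mostly were not called. All 8 measured AP-1 and Nr4a genes fell, with *Nr4a1* at -4.79 ± 0.10, and 13 of 18 other immediate early genes, with *Arc* at -2.33 ± 0.18. None of 5 SRF partners passed the test and none of 9 genes of the Myc network. 2 of 15 Myc targets fell, *Rrs1* and *Fbl*, and 3 of 7 ERK feedback genes, *Spry4*, *Dusp6* and *Dusp4*, by 0.48 ± 0.08 at most. 5 of 11 contractile SRF targets fell and 1 rose. 6 of 7 endothelial markers were higher in cultured aged cells, with sums of 90.1 to 181 CPM against 65.7 to 123 CPM in young, and 7 of 8 fibroblast markers were lower. Their part in the result was not tested.

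**Figure D3:**
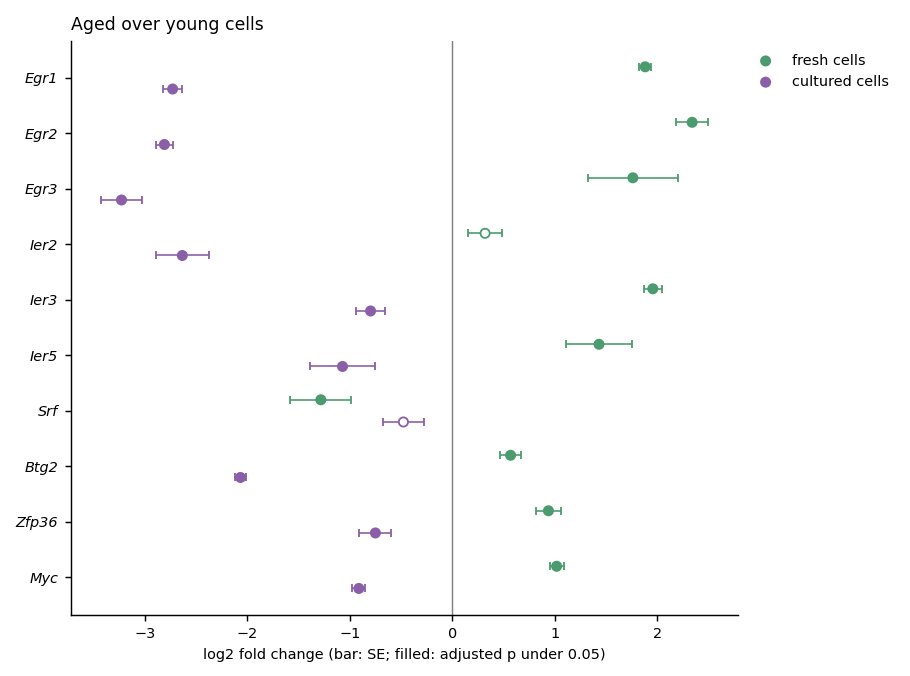
Log2 fold change of aged over young cells for each member, in fresh (green) and cultured cells (purple), with SE bars and filled points for an adjusted p under 0.05. 8 members are higher in fresh aged cells and 9 lower in cultured aged cells, and *Srf* lies below 0 in both.

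Few members were called for gel stiffness, the first of the 2 substrate factors. In young cells on young matrix all 10 members had a positive log2 fold change, with a median of 0.37 against 0.002 over all genes. On aged matrix 4 were positive and 6 negative (median -0.02). The difference between these stiffness effects was negative in all 10 (median -0.39, against 0.01 over all genes). Both results rest on the same SoftY libraries, and the shift of the set was not tested. In young cells 1 member was called over the mean of both matrices, where 3.56% of 12841 genes were, and in aged cells 0, where 0.296% were (also 0 members at an unadjusted p under 0.05, and 0 by DESeq2). *Btg2* rose in young cells on stiff gels by 0.33 ± 0.07 (adjusted p = 0.00676). *Ier3* gave 0.52 ± 0.19 (adjusted p = 0.149) and *Myc* 0.27 ± 0.09 (adjusted p = 0.101). Of the 11 runs that left out 1 library, *Ier3* passed in the 1 without young replicate 3 on SoftA, at a log2 fold change of 0.71, adjusted p = 0.0272. It also passed with a replicate block by library number (0.60, adjusted p = 0.0268) and without the libraries numbered 3 and 6 (0.76, adjusted p = 0.0323).

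The change in *Btg2* was found on young matrix. There it measured 252 and 249.8 CPM on SoftY and 390.3, 371 and 393 CPM on StiffY, and rose by 0.62 ± 0.11 (adjusted p = 6.85e-04), the 1 member called where 4.56% of genes were. On aged matrix it stood at 447, 462 and 431 CPM on SoftA and 461, 449 and 472 CPM on StiffA, which overlapped (0.04 ± 0.10, adjusted p = 0.954), and 0 members were called where 0.210% of genes were. The difference between these 2 stiffness effects in *Btg2* was -0.58 ± 0.14 and missed the threshold (adjusted p = 0.0601), so that the effect is not shown to depend on the matrix. In that interaction 0 members and 0.615% of genes were called by edgeR, with 2 members at an unadjusted p under 0.05 and 1, *Btg2*, called by DESeq2 (adjusted p = 0.0106). In edgeR *Btg2* passed with all libraries fitted (adjusted p = 0.0446), a replicate block by library number (0.0234) and without libraries numbered 3 and 6 (0.0154). It did not pass with RLE factors, library totals, no filter or a block by the replicate number of the labels. *Myc* on young matrix gave 0.44 ± 0.13 (adjusted p = 0.0559), from 83.5 and 79.9 CPM on SoftY to 112, 118 and 101 CPM on StiffY, without overlap.

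In aged cells no member passed for stiffness on young matrix, where 0.0545% of genes were called, nor on aged matrix, where 0.366% were. The interaction of stiffness and matrix in aged cells called 0 members and 0.0234% of genes, again with 0 members at an unadjusted p under 0.05 and 0 by DESeq2. *Btg2* in aged cells stood at 79.0 ± 12.8 CPM on SoftY and 85.5 ± 3.41 CPM on StiffY (SD, n = 3). Stiffness effects did not differ by cell age at the threshold: 0 members and 0.787% of genes were called in that interaction, 1 member at an unadjusted p under 0.05, *Btg2* at -0.28 ± 0.10 (adjusted p = 0.389), and 0 by DESeq2.

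The matrix of aged heart was compared with that of young heart, as the mean over both gels. In young cells *Btg2* rose by 0.54 ± 0.07 (adjusted p = 5.10e-05), the 1 member called where 2.49% of genes were, and was higher on every aged than on every young matrix library, from 431 and up to 393 CPM. *Egr2* gave 0.33 ± 0.10 (adjusted p = 0.0885) and passed without young replicate 2 on StiffY, at 0.40, adjusted p = 0.0439. Beside it 2 of 8 AP-1 and Nr4a genes rose in young cells, *Nr4a1* at 0.46 ± 0.11 and *Fos* at 0.64 ± 0.17.

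In aged cells the values of the 3 Egr genes were negative and that of *Btg2* positive for aged matrix, close to the threshold. The median of the 10 members was 0.11 in young cells (7 positive, 3 negative) and -0.43 in aged cells (4 positive, 6 negative). 2 members were called where 7.44% of genes were: *Egr2*, which fell by 0.45 ± 0.13 (adjusted p = 0.0410), and *Btg2*, which rose by 0.27 ± 0.08 (adjusted p = 0.0259). *Egr2* measured 30.6, 25.2 and 24.1 CPM on SoftY and 12.7, 17.7 and 16.9 CPM on SoftA, without overlap, and 22.6, 19.5 and 22.0 CPM on StiffY and 22.4, 14.0 and 19.4 CPM on StiffA, with overlap. The call rested on single libraries: without any of 9 of the 12 (all but replicate 3 on SoftY, 2 on StiffY and 1 on StiffA) *Egr2* lost it, at -0.54 to -0.36 and an adjusted p of up to 0.125. *Btg2* lost its call without replicate 3 on SoftY, any replicate on StiffY, or replicate 1 on SoftA or StiffA, at 0.21 to 0.33 and up to 0.0980. Its call also ended with scaling by library totals (0.24, adjusted p = 0.0620), without the filter on low counts (0.27, adjusted p = 0.0567) and without libraries numbered 3 and 6 (0.22, adjusted p = 0.117), the last of which ended that of *Egr2* too (-0.51, adjusted p = 0.0768). Another 6 members had an unadjusted p under 0.05 only, among them *Egr1* at -0.42 ± 0.13 (adjusted p = 0.0516), *Ier2* at -1.15 ± 0.38 (adjusted p = 0.0670) and *Ier3* at 0.56 ± 0.20 (adjusted p = 0.0908). *Egr1* passed without replicate 1 on SoftY, 3 on StiffY or 3 on SoftA (up to -0.54, adjusted p from 0.0143), and *Ier2* without replicate 3 on StiffA, at -1.51, adjusted p = 0.0140. Among processing alternatives, *Egr1* passed with RLE factors (adjusted p = 0.0488), library totals (0.0406), all libraries fitted (0.0261) and no filter (4.15e-06). DESeq2 (0.0273), either replicate block (0.0157 and 0.00694) and leaving out libraries numbered 3 and 6 (1.52e-05) called it as well. *Ier2* passed with all libraries fitted (0.0451), no filter, either block and without numbers 3 and 6. *Ier2* did not pass with RLE factors, library totals or DESeq2. 7 of 11 contractile SRF targets rose with aged matrix in aged cells, such as *Acta2* at 0.80 ± 0.09, and 4 of 7 endothelial markers rose with them, whose part was not tested.

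The response to the matrix was set against cell age in an interaction, and 0 members passed where 0.0935% of genes were called (5 members at an unadjusted p under 0.05, 1 by DESeq2). *Egr2*, with effects of 0.33 in young and -0.45 in aged cells, gave the smallest p at -0.78 ± 0.17 (adjusted p = 0.0678), and passed without young replicate 2 on StiffY, young replicate 3 on SoftA or aged replicate 1 on StiffA, at an adjusted p from 0.0392. *Ier2* gave -1.26 ± 0.51 (adjusted p = 0.545) and *Egr3* -1.12 ± 0.45 (adjusted p = 0.535).

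**Figure D4:**
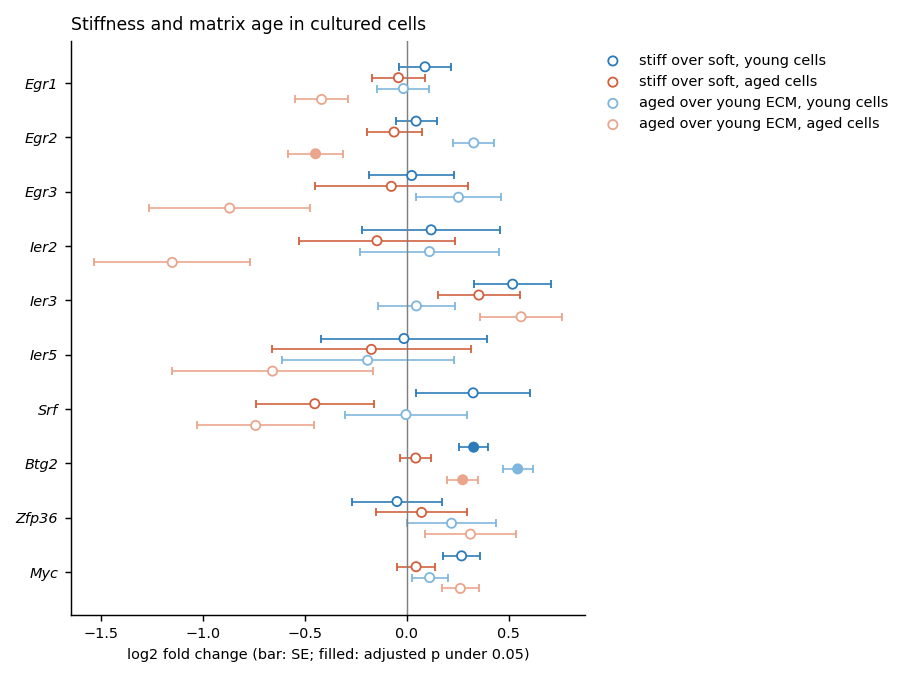
Log2 fold change of stiff over soft gels and of aged over young ECM for each member in cultured young (blue) and aged (orange) cells, with SE bars and filled points for an adjusted p under 0.05. *Btg2* is called in 3 of the 4 comparisons and *Egr2* in 1. For aged over young ECM in aged cells, 8 members had an unadjusted p under 0.05 by edgeR. That number was 2 for ECM in young cells, and 3 and 0 for stiffness in young and aged cells.

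Taken over all 10 groups, the order of the levels showed which groups can be told apart. For *Egr1* the 4 cultured young groups came first, from 1047 ± 39.8 CPM on StiffY to 848 ± 169 CPM on SoftY. Each overlapped its neighbour in that order, although StiffY and SoftY, the first and the last of them, did not overlap. Fresh aged cells followed at 698 ± 12.4 CPM, below all of these and above fresh young cells at 185 ± 6.28 CPM. Fresh young cells overlapped aged cells on StiffY and lay above those on the other 3 substrates. In *Egr3* fresh aged cells also lay below every cultured young group and above every other group, while for *Egr2* fresh aged cells (104 ± 12.2 CPM) overlapped young cells on SoftY (118 ± 13.3 CPM). *Ier3* and *Myc* were ordered otherwise, with fresh aged cells first (248 ± 10.4 and 296 ± 9.66 CPM), fresh young cells next (62.1 ± 5.85 and 143 ± 3.34 CPM) and every cultured group below, and in *Myc* each cultured young group above each aged one. *Btg2* was highest in young cells on StiffA and SoftA (461 ± 11.6 and 447 ± 15.4 CPM), which overlapped, then on StiffY (384 ± 11.9 CPM) and SoftY (251 ± 1.83 CPM, n = 2), each apart from the next. In *Srf* and *Zfp36* every group overlapped the next in the order, and in *Ier5* all but fresh young cells did.

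**Figure D5:**
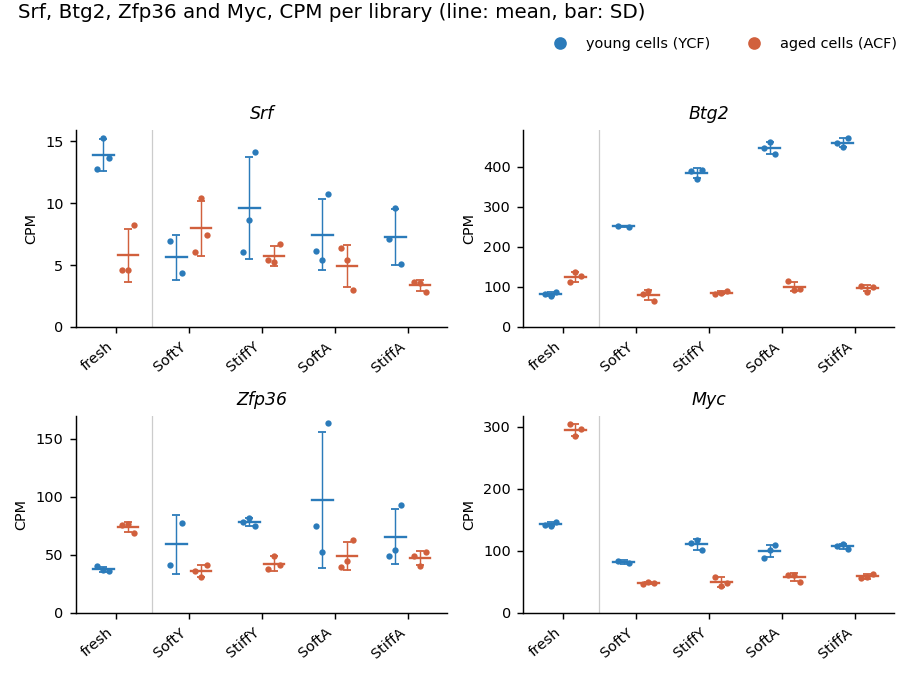
CPM of *Srf*, *Btg2*, *Zfp36* and *Myc* in each library, fresh and on 4 substrates, with group mean (line) and SD (bar); young cells are blue and aged cells orange. *Myc* is highest in fresh aged cells, at 286 to 305 CPM, and *Btg2* in cultured young cells, at 249.8 to 472 CPM.

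Levels of different genes were set side by side per kilobase of exon (union of GENCODE M21 exons), as means of groups. *Ier2* was the most abundant member in fresh young (180 CPM per kb), fresh aged (231), cultured young (255) and cultured aged cells (45.1). *Ier3* came second in fresh aged cells at 219 CPM per kb and stood at 12.2 CPM per kb in cultured aged ones. *Egr1* went from 41.2 CPM per kb in fresh young to 210 CPM per kb in cultured young cells. *Egr3* was the least abundant in fresh young, fresh aged and cultured aged cells, and in cultured young cells, at 3.42 CPM per kb, it stood above *Srf* (2.59) and *Ier5* (1.90).

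Libraries of a group differed widely in *Ier2*, with an SD of 272 CPM on a mean of 389 CPM in young cells on SoftA. Among cultured young cells, the library numbered 3 was the lowest of its group in 4 of 4 groups, at 97.0 CPM against 434 and 636 CPM on SoftA. Among cultured aged cells the library numbered 6 was the highest in 4 of 4, at 82.9 CPM against 32.5 and 20.5 CPM on StiffA. *Egr3* was lowest in number 1 in 4 of 4 young groups. *Zfp36* on SoftA in young cells was 74.8, 52.2 and 163 CPM, with number 3 the highest. With the libraries numbered 3 and 6 left out, an alternative added after their *Ier2* levels had been seen, the same number of members, 9, were lower in cultured aged cells.

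The genes whose pattern was most like that of a member were taken from 8736 genes by Pearson's r over the 10 group means. For *Egr1* these were *Nr4a1* (r = 0.982), *Thbs1* (r = 0.967) and *Aspscr1* (r = 0.952), and for *Egr2* the same 3. *Egr3* was most like *Arc* (r = 0.956), *Btg2* like *Fos* (r = 0.987) and *Myc* like *Plk2* (r = 0.991). *Ier2* was most like *Irf2bpl* (r = 0.967), *Ier3* like *Ccdc124* (r = 0.991), *Ier5* like *Map4k5* (r = 0.960), *Zfp36* like *Ccn1* (r = 0.935) and *Srf* like *Ppp2r5d* (r = 0.914). Within the set, *Egr1* and *Egr2* were the closest pair (r = 0.988), followed by *Egr1* and *Egr3* (r = 0.969) and *Egr2* and *Egr3* (r = 0.968). *Ier3* and *Myc* came next (r = 0.957), and the lowest value for *Ier3* was with *Btg2* (r = 0.0221). These r values describe 10 points that share libraries and a strong split by age and culture, and carry no p.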

How the data were processed

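RNA was extracted with TRIZOL, and 20 ng went into the NEBNext Single Cell/Low Input kit, as the labels' protocols state. Per the submitters' processing notes, STAR 2.7.8a aligned the reads to mm39. The authors deposited raw counts for 55357 genes in 29 libraries, with totals of 1192668 to 3275089; the table's name points to HTSeq, whose version, strand setting and annotation are not stated in what was used here, and reads of *Zfp36* cannot be told apart from those of the overlapping *Gm44710* (85 counts in all against 3717).

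Tests used edgeR 4.0.16 in R 4.3.3 with filterByExpr by group, TMM factors and the quasi-likelihood F test. P-values were adjusted per comparison by Benjamini-Hochberg over its tested genes, with 0.05 as the threshold. Fresh libraries (6, 11786 genes), cultured libraries (23, 12841 genes) and all 29 (13523 genes) were fitted apart, substrates weighing equally in means. In these fits each library counted as independent, although library numbers recur across substrates. SE was derived from the log2 fold change and F. Simulated data were run only for fresh age, culture of young cells, culture by age, cultured age and stiffness in aged cells. They held no effect of library number, so that they say nothing of such effects. The members and the 12 pathway lists of 108 genes were chosen with earlier results of these data known. Of each list, up to 3 called genes with the smallest p were eligible to be named, or, with none called, at most 2 with the highest CPM; genes of like pattern needed 10 CPM on average. *Elk1*, *Elk4*, *Mrtfa* and *Cd14* were named outside this rule. Alternatives were RLE factors, library totals, no filter, DESeq2 1.42.0, other libraries in the fit, replicate blocks and leaving out each library.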

Additional observations from a re-analysis of the deposited data

Results flagged for a closer look

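The response to culture differed between the ages in 9 of the 10 members by the test of the interaction, aged relative to young cells (edgeR, adjusted over 13523 genes). The log2 difference was -5.18 in *Egr2*, -5.01 in *Egr3*, -4.64 in *Egr1*, -2.99 in *Ier2*, -2.78 in *Ier3*, -2.66 in *Btg2*, -2.53 in *Ier5*, -1.96 in *Myc* and -1.72 in *Zfp36*, with adjusted p-values of up to 0.00119. In *Ier3* and *Myc* the difference is one of size, since both fell with culture at both ages. In the Egr genes, *Btg2* and *Zfp36* the direction itself differed. Number and age, and letter and culture, cannot be told apart in these libraries.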

How the results depend on the processing

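No member changed direction in a called comparison under any alternative run. The members called stayed at 9 in fresh age (10 without the filter, with the replicate block, or by leaving out 1 library), at 9 in culture of aged cells (8 with only the libraries of that age fitted, where fewer genes passed the filter), at 9 in the culture by age interaction, and at 8 to 9 in cultured age. For fresh age and cultured age the replicate block pairs young with aged libraries by number, a link that the labels do not give. Deviations of such pairs had a median r of 0.006 in fresh and -0.05 in cultured libraries. Scaling by library totals alone moved the median of all genes to -0.14 in fresh age, -0.14 in culture of young cells and 0.19 in the interaction, and the members' calls kept their numbers there; 8 of 100 group levels moved by over 1 SD.

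Substrate counts were less firm. For stiffness by matrix in young cells (0 called), 1 member, *Zfp36*, was called without the filter. *Btg2* was the 1 called by DESeq2 and the 1 with all libraries fitted. It was also among 2 with a replicate block by library number and 3 without libraries numbered 3 and 6. For cell age by matrix (0 called) the counts were 3 without the filter, 1 by DESeq2, 2 with the replicate block, 1 with the block by library number and 2 without numbers 3 and 6. Stiffness on young matrix in young cells (1 called) gave 2 with all libraries, 2 with the block by number and 4 without numbers 3 and 6. Aged matrix in aged cells (2 called) gave 4 with all libraries and 5 with either replicate block, while with library totals (2 called), no filter (3 called) or without numbers 3 and 6 (2 called) none was higher, *Btg2* having lost its call. Stiffness in young cells (1 called) gave 2 with the block by number and 3 without numbers 3 and 6, and stiffness in aged cells, over both matrices and on young matrix (0 called each), 1 and 1 without them. Leaving out 1 library at a time gave 0 to 3 members for aged matrix in aged cells, 1 to 2 in young cells, 1 to 2 for stiffness in young cells and 0 to 1 for cell age by matrix. The block by number and leaving out 3 and 6 were added after the data were seen, and the cause of these changes was not tested.

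Among all genes, counts moved by over 1.5 times in substrate comparisons. Cell age by matrix went from 12 to 19 with all libraries, 28 by DESeq2, 31 and 70 with the blocks, 111 without the filter and 223 without 3 and 6. Stiffness by matrix in young cells went from 79 to 134, 145, 267 (block by number), 186 and 331, and in aged cells from 3 to 12 by DESeq2, 5 with the blocks, 23 and 19. Aged matrix in aged cells went from 956 to 1492 and 1630 with the blocks. Stiffness in young cells on aged matrix went from 27 to 44 by DESeq2, 52 with the block by number, 78 without the filter and 41 without 3 and 6, and in aged cells on aged matrix from 47 to 93 by the block and 109 without the filter. Stiffness in aged cells on young matrix went from 7 to 11 with all libraries or the block by number and 22 without 3 and 6, and cell age by stiffness from 101 to 165. Cultured age went from 1928 to 3068 without 3 and 6, and stiffness on young matrix in young cells from 586 to 963.

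Replicate numbers of the labels correlated in deviation at over 0.1 in 6 of 15 young cultured pairs (median 0.08) and 4 of 18 aged ones. The number in the library name, which differs from the replicate number for young cells on SoftY (library 3 is replicate 2), gave 9 of 15 young pairs (median 0.11). Neither numbering passed in every pair, although 10 of 12 aged libraries were nearest to their own number. *Egr3*, *Ier5* and *Srf* are limited by depth.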
